A study of Mus musculus with 59 samples.

Results

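The libraries described here are 24 of the 59 RNA sequencing libraries of a study of the ventral tegmental area (VTA), a part of the midbrain whose dopamine neurons project to striatum and cortex. The study asked how cocaine, given to male mice in 4 ways, changed RNA levels there. In 35 libraries cocaine or saline had been given in 1 of 3 paradigms of injection or conditioning, named acute, chronic and conditioning. Acute and chronic libraries came from home-cage injections, and the 24 other libraries came from mice that self-administered cocaine or saline into a vein. The 24 libraries were chosen by measured values, the level of Th, the gene of tyrosine hydroxylase, by which the 35 were ordered. The 12 with the most Th are called Th-high and the 12 with the least Th-low, and 11 lay between them.

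Th-high held 7 cocaine and 5 saline libraries, and so did Th-low. By paradigm, Th-high had 3 acute, 6 chronic and 3 conditioning libraries, against 3, 3 and 6 in Th-low. Acute saline gave 1 library to Th-high, 0 to Th-low and 5 to those between. The 6 groups behind the 35 libraries were 5 acute cocaine and 6 acute saline, 6 chronic cocaine and 6 chronic saline, and 6 conditioning cocaine and 6 conditioning saline. The 24 self-administration libraries were 15 cocaine and 9 saline. The labels give no strain, genotype, age, dose, number of doses or time of dissection. Nothing in them states that each sample came from its own animal, so the p-values describe the spread among these libraries, part of which may be technical. Libraries are called by group and column number, counted from 0, which is not the replicate number of the labels.

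Dopamine neurons convert tyrosine to L-DOPA with tyrosine hydroxylase and then to dopamine with aromatic amino acid decarboxylase. The vesicular monoamine transporter loads dopamine into vesicles, and the dopamine transporter, which cocaine blocks, takes it back up after release. A set of transcription factors, among them Nr4a2, Pitx3, En1 and Lmx1b, specifies and maintains these cells. The VTA also holds GABA neurons, glutamate neurons, astrocytes, oligodendrocytes, microglia and vessels.

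Values are FPKM as deposited, in which fragments are scaled to transcript length and to the library, so that levels of different genes can be set side by side. Th was 432, 520.3 and 691 FPKM in Th-high libraries (lowest, median and highest), against 124, 194 and 283 FPKM in Th-low libraries. The library just inside the Th-high limit, chronic cocaine 4, had 431.5 FPKM and the one just outside, chronic cocaine 5, had 401.3 FPKM. At the low end, conditioning saline 1 was just inside with 283.1 FPKM and conditioning saline 3 just outside with 289.3 FPKM. Th chose the libraries and is not a result. What follows within the 24 libraries was chosen through Th too, and is given as a description with no test. In bulk tissue, fewer cells of a type and less RNA per cell cannot be told apart.

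The 24 libraries were alike in what could be measured of their scale. Their FPKM sums ran between 427646 and 457210, with a median of 440346 in Th-high and 437051 in Th-low. Between 5864 and 7534 of 24346 gene symbols were listed at 0 in Th-high libraries and between 5870 and 7715 in Th-low libraries. The read depth is unknown, and identical libraries were not found (0 pairs). The median difference on the log2 scale, Th-high minus Th-low, was -0.0082 in the 1269 genes with the shortest transcripts and -0.0091 in the 1270 with the longest.

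Dopamine neuron genes were mostly higher in Th-high libraries, while most other genes lay near 0. Of 13172 genes, Th left out, that averaged 1 FPKM or more over the 24 libraries, 132 were at least 1.5-fold higher in Th-high libraries (1.00% of the genes) and 50 were at least 1.5-fold lower (0.380%). These folds compare means of log2(FPKM + 1), a scale on which low genes show less than their full change. The median difference over all genes was -0.0052 on the log2 scale. The lists of dopamine neuron genes hold 48 genes besides Th, and all 48 passed the limit on mean level. Among them, Fgf20 passed it only through its values in Th-high libraries. Of the 48 genes, 46 were higher in Th-high libraries and 31 were higher by at least 1.5-fold, with 0 lower by that much. Their median difference was 0.87 on the log2 scale, and 19 of them did not overlap between the groups. Genes without overlap numbered 133 higher (1.01%) and 19 lower (0.144%) over all genes.

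**Figure D1:**
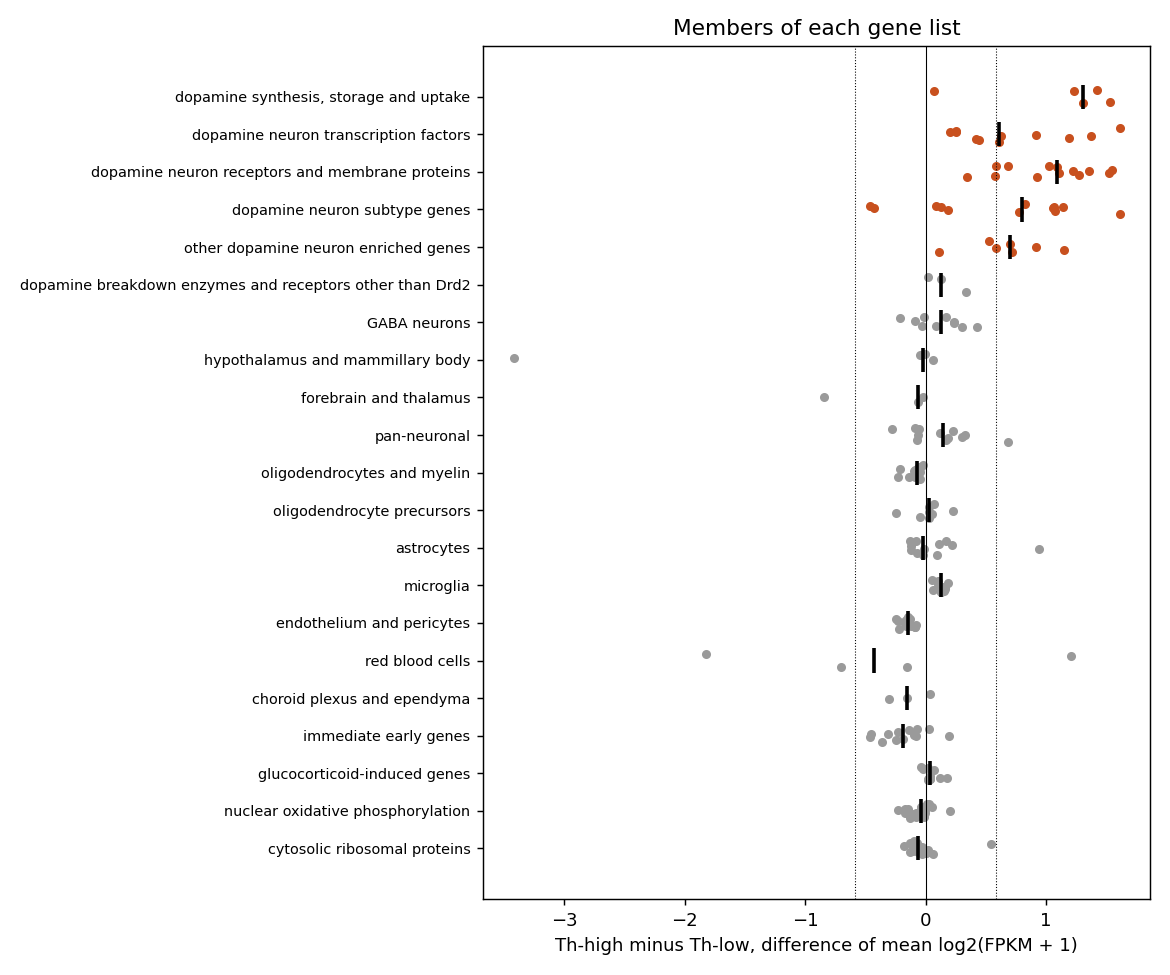
Difference of mean log2(FPKM + 1), Th-high minus Th-low libraries (12 each), for each counted member of every list with at least 3 counted members. Points are genes (orange for dopamine neuron lists), black bars are list medians, and dotted lines mark 1.5-fold. Medians of the 5 dopamine neuron lists lie between 0.61 and 1.30.

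Of the 5 genes that make, store and take up dopamine, 4 were at least 1.5-fold higher (list median 1.30). Slc6a3, the dopamine transporter, had 349, 472 and 597 FPKM in Th-high libraries, against 107, 150.5 and 324 FPKM in Th-low libraries. Its groups did not overlap, at 476 ± 85.0 in Th-high libraries and 168 ± 55.5 FPKM in Th-low libraries (mean ± SD, n = 12 each), a difference of 1.53. The highest Th-low value, 324 FPKM in conditioning saline 1, stood apart from the next, 200.3 FPKM in conditioning saline 2. Slc18a2, the vesicular monoamine transporter, had 149, 193 and 237 FPKM in Th-high libraries, against 53.7, 65.8 and 120.2 FPKM in Th-low libraries. Every Th-high library lay above every Th-low library, as it did for Ddc, which makes dopamine from L-DOPA. Ddc had 278, 353 and 451 FPKM in Th-high libraries and 116, 135 and 248 FPKM in Th-low libraries. Gch1, the first enzyme of the synthesis of the cofactor of tyrosine hydroxylase, had 19.0, 22.7 and 31.2 FPKM in Th-high libraries, against 7.18, 9.84 and 12.3 FPKM in Th-low libraries. The differences of these 3 genes were 1.42, 1.30 and 1.23 in that order. The exception in this list was Gchfr, which encodes the feedback protein of that same enzyme. It had 1.10, 1.53 and 2.20 FPKM in Th-high libraries and 0.408, 1.57 and 2.16 FPKM in Th-low libraries, overlapping almost wholly, with a difference of 0.07. Choosing 12 and 12 libraries by Slc6a3 in place of Th would have shared 10 of the high and 11 of the low libraries.

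Among the transcription factors the spread was wide, and 6 of 11 were at least 1.5-fold higher (list median 0.61). Pitx3, a homeodomain factor that midbrain dopamine neurons need to survive, had 11.5, 15.4 and 19.8 FPKM in Th-high libraries, against 1.40, 4.80 and 10.9 FPKM in Th-low libraries. Its groups did not overlap and its difference was 1.61, the largest of the genes without overlap. En1, an engrailed factor that maintains these neurons, had 28.2, 36.6 and 52.9 FPKM in Th-high libraries and 8.44, 14.6 and 22.5 FPKM in Th-low libraries, again without overlap. Its relative En2 had 8.94, 14.6 and 18.8 FPKM in Th-high libraries and 2.79, 5.51 and 8.61 FPKM in Th-low libraries. Differences were 1.37 for En1, 1.19 for En2, 0.92 for Lmx1b, 0.63 for Foxa1 and 0.61 for Satb1. The factors under 1.5-fold were Nr4a2 at 0.44, Lmx1a at 0.42, Foxa2 at 0.25, Sox6 at 0.25 and Otx2 at 0.20, all with overlapping groups. Nr4a2, the orphan nuclear receptor that acts on the Th gene, had 27.0, 33.1 and 41.5 FPKM in Th-high libraries, against 14.7, 25.6 and 34.6 FPKM in Th-low libraries.

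Pitx3 and Slc6a3 are shown by the sequence around their starts, as the factor and the transporter with the largest differences of their lists. Each is 250 bases before to 50 bases after the start of the gene in RefSeq, build GRCm38.p6, from 5′ to 3′ on the strand of the gene. The windows are chr19:46148276-46148575 on the minus strand for Pitx3 (71.7% G and C) and chr13:73536497-73536796 on the plus strand for Slc6a3 (66.0% G and C). Capitals mark a match to 1 of 3 motifs searched on both strands, and neither window has any.
Pitx3: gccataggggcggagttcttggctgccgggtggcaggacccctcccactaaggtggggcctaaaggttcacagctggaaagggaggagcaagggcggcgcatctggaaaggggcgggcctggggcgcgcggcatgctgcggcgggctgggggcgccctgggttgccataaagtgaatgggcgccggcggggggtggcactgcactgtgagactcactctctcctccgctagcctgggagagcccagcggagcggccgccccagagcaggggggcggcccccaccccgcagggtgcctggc
Slc6a3: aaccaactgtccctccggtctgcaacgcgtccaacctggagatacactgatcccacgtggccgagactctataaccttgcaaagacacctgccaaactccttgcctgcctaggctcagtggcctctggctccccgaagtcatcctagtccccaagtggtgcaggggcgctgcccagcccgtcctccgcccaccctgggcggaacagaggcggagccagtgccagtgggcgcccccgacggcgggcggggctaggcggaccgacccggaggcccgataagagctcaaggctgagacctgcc
The motifs were AAAGGTCA, the site bound by Nr4a2 as a monomer, TAATCC, a homeodomain site of the Pitx type, and TGACGTCA, the cyclic AMP response element. They are found in 1.51%, 7.06% and 1.79% of 32851 promoters of the same length. Of the 132 higher genes, 87 had an entry in the promoter table, and 1, 2 and 2 of these held the motifs in that order. Also without a match were the promoters of Anxa1 and Slc10a4.

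Receptors and membrane proteins of dopamine neurons had 10 of 13 members at least 1.5-fold higher, with a list median of 1.09. Slc10a4, an orphan vesicular transporter of monoamine and cholinergic neurons, had 78.8, 99.8 and 132 FPKM in Th-high libraries, against 25.0, 33.4 and 59.5 FPKM in Th-low libraries. The 4 nicotinic acetylcholine receptor subunits of the list were all higher without overlap. Chrna6, a subunit typical of dopamine neurons, had 65.1, 87.2 and 107 FPKM in Th-high libraries, against 20.6, 28.7 and 50.2 FPKM in Th-low libraries. Its partner Chrnb3 had 24.3, 28.6 and 37.7 FPKM in Th-high libraries and 7.90, 10.6 and 16.7 FPKM in Th-low libraries. Differences were 1.52 for Chrna6, 1.35 for Chrnb3, 1.27 for Chrna5 and 0.68 for Chrna4. Ntsr1, a neurotensin receptor, differed by 1.22, with 16.98, 23.6 and 32.1 FPKM in Th-high libraries and 7.07, 9.39 and 15.0 FPKM in Th-low libraries. Ret, the kinase of the GDNF receptor, differed by 1.10 without overlap, while its GDNF-binding partner Gfra1 differed by 0.58 and overlapped. Drd2, the dopamine autoreceptor, had 44.2, 58.6 and 71.8 FPKM in Th-high libraries, against 19.5, 27.4 and 44.4 FPKM in Th-low libraries, and 11 of 12 Th-high libraries lay above every Th-low library. With Gfra1, the netrin receptor gene Dcc (0.35) and the potassium channel gene Kcnj6 (0.57) were the members under 1.5-fold.

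**Figure D2:**
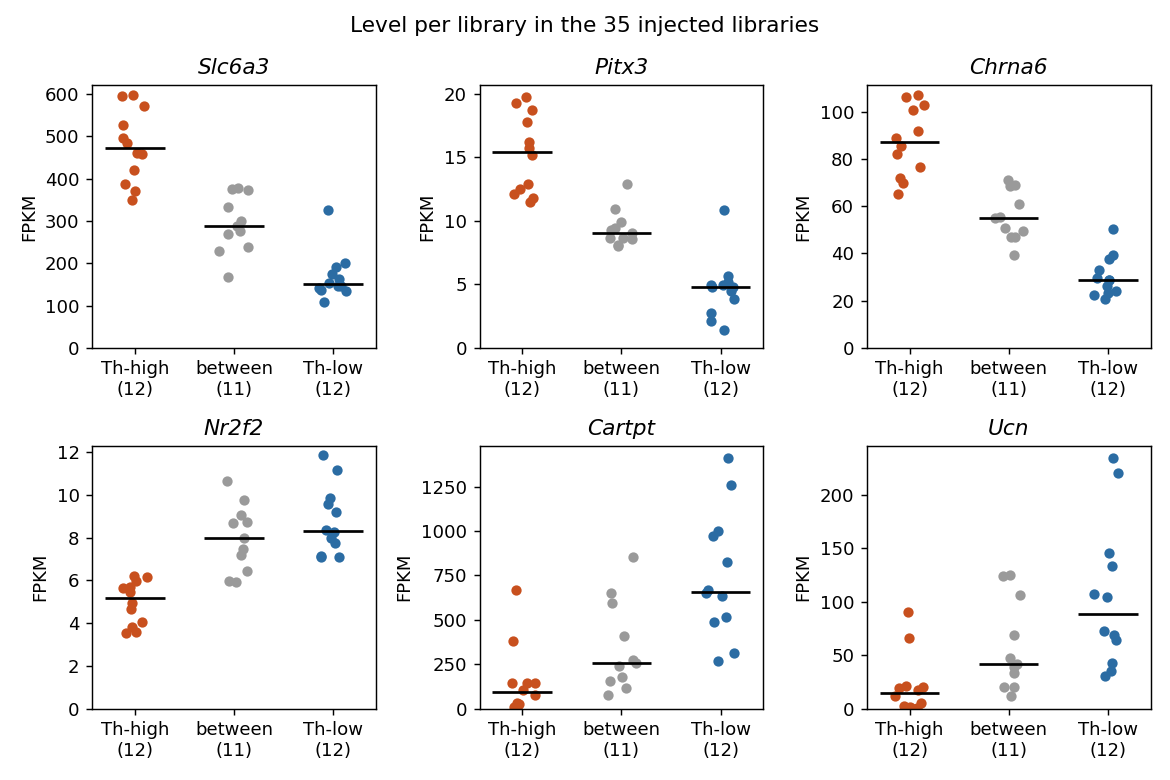
FPKM of 6 genes in each of the 35 injected libraries, by position in the Th order (12 Th-high, 11 between, 12 Th-low); points are libraries and lines are medians. Slc6a3, Pitx3 and Chrna6 are higher in every Th-high than in every Th-low library, Nr2f2 is lower without overlap, and Cartpt and Ucn are lower with overlap.

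Genes that mark subtypes of dopamine neurons did not all follow Th, and 7 of 12 were at least 1.5-fold higher (list median 0.80). Aldh1a1, a retinaldehyde dehydrogenase of ventral dopamine neurons, had 289, 438 and 592 FPKM in Th-high libraries, against 141, 199.5 and 285 FPKM in Th-low libraries, with no overlap. Calb1, the calcium-binding protein of more dorsal and medial VTA neurons, had 36.4, 47.8 and 66.8 FPKM in Th-high libraries and 14.6, 21.4 and 36.0 FPKM in Th-low libraries, also with no overlap. Their differences were nearly the same, 1.06 and 1.07. Anxa1, a marker of a ventral subtype, differed by 1.61, with 10 of 12 Th-high libraries above every Th-low library. The peptide gene Grp (1.14), the lipase gene Lpl (1.06), Ndnf (0.82) and the transcription factor Neurod6 (0.77) were higher with overlap. Cck, a peptide of many VTA dopamine neurons, had 84.3, 133 and 238 FPKM in Th-high libraries and 72.0, 133 and 222 FPKM in Th-low libraries, a difference of 0.08. Vip (0.19) and Nxph4 (0.13) were also near 0. The 2 members with lower levels in Th-high libraries were Calb2 and Slc17a6. Calb2, the calcium-binding protein calretinin, had 157, 199 and 265 FPKM in Th-high libraries, against 193, 303 and 351 FPKM in Th-low libraries. Slc17a6, the vesicular glutamate transporter of glutamate neurons and of some dopamine neurons, had 73.4, 94.3 and 109.6 FPKM in Th-high libraries and 104, 127 and 135 FPKM in Th-low libraries. In 11 of 12 Th-low libraries Slc17a6 exceeded every Th-high library.

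Of 7 other genes enriched in dopamine neurons, 4 were at least 1.5-fold higher (list median 0.70). They were the copine gene Cpne7 (1.15, no overlap), Dlk1, a Notch ligand homologue (0.91), the synuclein gene Sncg (0.70) and the growth factor gene Fgf20 (0.71). Ankrd34b differed by 0.52 with no overlap, Klhl1 by 0.58 and Rgs6, a regulator of G protein signalling, by 0.11. A gene outside the lists, Slc39a4, which encodes a zinc importer, was among the 12 largest differences without overlap. It had 6.58, 8.91 and 11.9 FPKM in Th-high libraries, against 1.93, 3.01 and 4.28 FPKM in Th-low libraries.

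The monoamine oxidase genes, whose products break down dopamine, differed less. Maoa had 22.1, 24.5 and 27.7 FPKM in Th-high libraries, against 18.1, 19.1 and 20.8 FPKM in Th-low libraries, which is a small difference (0.33) but one without overlap. Maob differed by 0.13. The dopamine receptors Drd1, Drd3, Drd4 and Drd5 were under the limit on mean level, with medians of at most 0.709 FPKM in Th-high and 1.03 FPKM in Th-low libraries.

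The lower side was smaller, and of a different make-up. Of the 50 genes at least 1.5-fold lower, 21 were loci of microRNAs, snoRNAs or other small RNAs, against 16 of the 132 higher genes and 94 of all 13172. None of these small loci was among the genes without overlap, and none passed the test in the self-administration libraries. Foxd2, a forkhead transcription factor, had 0.106, 0.695 and 1.59 FPKM in Th-high libraries, against 1.93, 4.30 and 7.16 FPKM in Th-low libraries, with no overlap and a difference of -1.55 (-2.44 with a pseudocount of 0.1). Foxd2 passed the limit on mean level only through its values in Th-low libraries. Nr2f2, the nuclear receptor COUP-TFII, had 3.54, 5.20 and 6.19 FPKM in Th-high libraries and 7.09, 8.31 and 11.9 FPKM in Th-low libraries. Gulp1, an adaptor of engulfment, had 1.93, 2.57 and 2.98 FPKM in Th-high libraries and 3.87, 5.13 and 7.40 FPKM in Th-low libraries. The differences were -0.71 for Nr2f2 and -0.81 for Gulp1. The other protein-coding genes named by the same rule were Syt6, a synaptotagmin (-0.62), the splicing factor gene Rbfox1 (-0.60), the receptor phosphatase gene Ptprt (-0.49), Syn2, a synapsin (-0.43), the cannabinoid receptor gene Cnr1 (-0.42), the calcium channel gene Cacna1i (-0.39), Rnd3, a small GTPase (-0.39), and Rasgrf1, a Ras exchange factor (-0.39). Syn2 had 69.2, 82.9 and 93.8 FPKM in Th-high libraries, against 97.9, 110.0 and 133 FPKM in Th-low libraries. The noncoding transcript 9430021M05Rik (-0.58) starts at 162661163 on the plus strand of chromosome 2, beside Ptprt, which starts at 162661147 on the minus strand (GRCm38). Whether the counting used strand is not stated, so reads of these neighbours may not be separate.

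**Figure D3:**
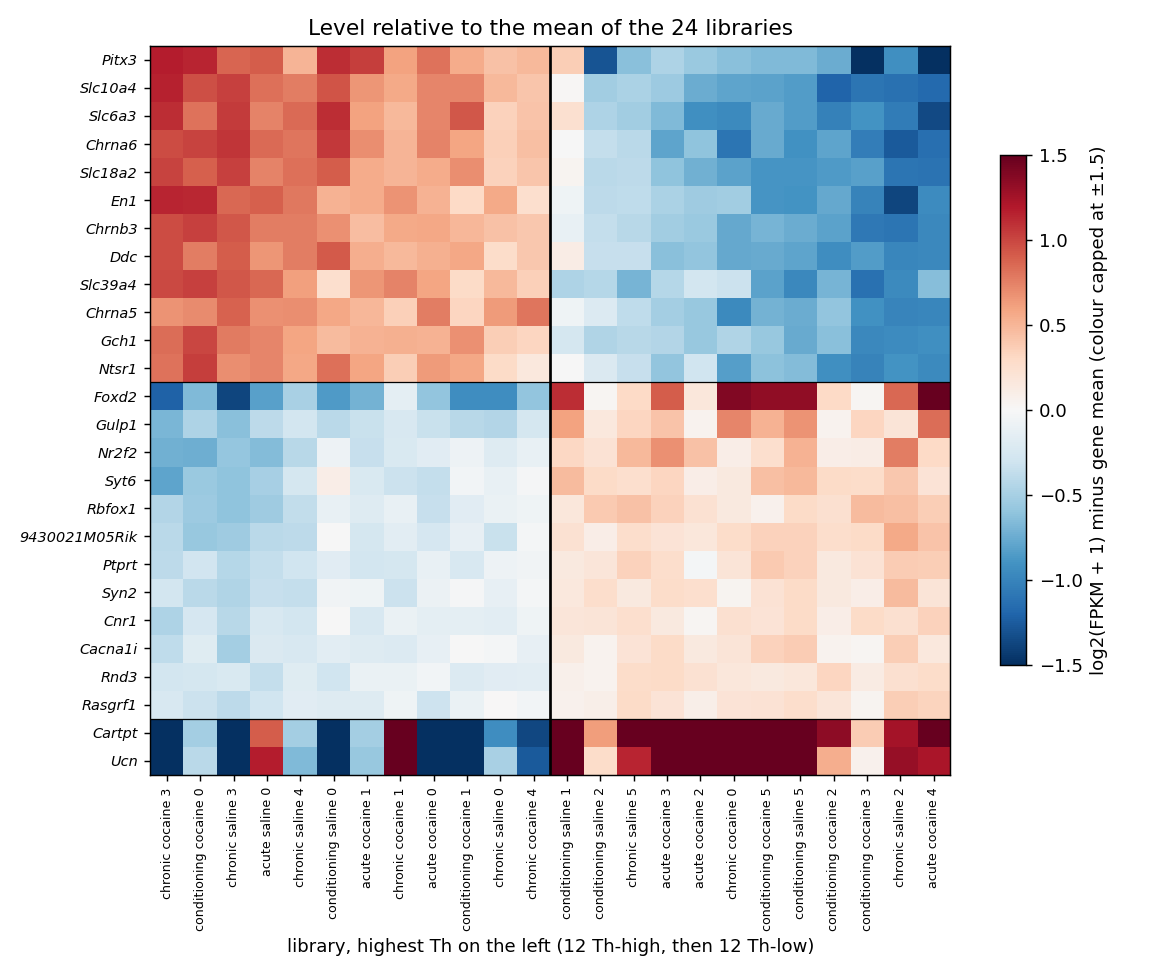
Colour shows log2(FPKM + 1) minus the mean of the gene over the 24 libraries, capped at ±1.5, for the 12 higher and 12 lower genes with the largest differences without overlap, and Cartpt and Ucn. Columns are libraries in order of Th, with the 12 Th-high left of the 12 Th-low; Cartpt and Ucn are high in the Th-high libraries chronic cocaine 1 and acute saline 0.

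The largest differences of all were the peptide genes Cartpt and Ucn, whose groups overlapped. Ucn, and Postn and Nkx6-1 below, were outside the rule for named genes and were chosen after their values were seen. Cartpt, the gene of the cocaine- and amphetamine-regulated transcript, had 5.49, 92.8 and 671 FPKM in Th-high libraries, against 266, 659 and 1411 FPKM in Th-low libraries, a difference of -3.42. Ucn, which encodes urocortin, a peptide of the corticotropin-releasing factor family, had 0.290, 14.7 and 90.4 FPKM in Th-high libraries and 30.2, 88.8 and 235 FPKM in Th-low libraries, a difference of -3.10. Within Th-high the levels ranged widely: chronic saline 3 had 5.49 FPKM of Cartpt and 0.290 FPKM of Ucn, while chronic cocaine 1 had 671 and 90.4 FPKM. Conditioning saline 1 had the most of both in Th-low, 1411 FPKM of Cartpt and 235 FPKM of Ucn, and also the most Slc6a3 and Pitx3 there. Both differences had the same sign within each paradigm and treatment. Cartpt differed by -2.51 within acute, -3.24 within chronic and -4.75 within conditioning libraries. Postn, which encodes the matrix protein periostin, differed by -1.56, and Nkx6-1, a homeodomain factor, by -1.19.

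The promoter windows of Cartpt and Ucn, shown because these genes had the largest differences, each hold TGACGTCA, in capitals. They are chr13:99900634-99900933 and chr5:31138846-31139145, both on the minus strand (GRCm38.p6, RefSeq). The match was noticed after the values were seen, and describes the letters only, since 1.79% of all promoters hold the same motif.
Cartpt: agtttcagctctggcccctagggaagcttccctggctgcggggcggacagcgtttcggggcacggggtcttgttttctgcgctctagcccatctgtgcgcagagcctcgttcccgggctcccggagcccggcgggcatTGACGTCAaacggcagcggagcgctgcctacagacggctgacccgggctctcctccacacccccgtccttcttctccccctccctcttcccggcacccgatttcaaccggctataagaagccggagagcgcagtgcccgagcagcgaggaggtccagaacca
Ucn: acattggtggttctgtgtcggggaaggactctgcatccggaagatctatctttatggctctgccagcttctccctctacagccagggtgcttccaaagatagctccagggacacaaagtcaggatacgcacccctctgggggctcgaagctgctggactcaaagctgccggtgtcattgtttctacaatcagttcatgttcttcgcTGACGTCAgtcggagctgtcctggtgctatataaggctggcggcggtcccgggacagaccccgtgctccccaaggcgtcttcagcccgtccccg

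Most lists of other cell types moved little beside the dopamine neuron lists. All 14 oligodendrocyte and myelin genes were lower in Th-high libraries, though by a median of only -0.08, and summed to between 7381 and 9776 FPKM in Th-high and between 7545 and 10958 FPKM in Th-low libraries. Opalin, a myelin membrane protein, differed by -0.21 and Mal by -0.23. All 13 genes of endothelium and pericytes were lower (median -0.15), with sums between 164 and 224 FPKM in Th-high and between 192 and 222 FPKM in Th-low libraries. The endothelial adhesion molecule Pecam1 differed by -0.24 and the pericyte gene Rgs5 by -0.23. All 13 microglia genes were higher (median 0.12), with sums between 259 and 397 FPKM in Th-high and between 236 and 339 FPKM in Th-low libraries. C1qc, a complement subunit of microglia, differed by 0.19 and the purine receptor gene P2ry12 by 0.15. No member of these 3 lists reached 1.5-fold or parted the groups, which is near the shares over all genes. Those were 1.00% higher and 0.380% lower by 1.5-fold, and 1.01% and 0.144% without overlap. The part of these 3 lists in the other differences was not tested.

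GABA neuron genes had a median of 0.13, with 6 of 10 higher. Their differences ran from -0.21 to 0.43, further in both directions than those of the members named here. Gad1, which makes GABA, differed by -0.03, Gad2 by 0.08 and the vesicular GABA transporter gene Slc32a1 by 0.30. Slc32a1 had 71.9, 85.0 and 101 FPKM in Th-high libraries, against 58.5, 67.9 and 77.8 FPKM in Th-low libraries. Of 3 glutamate neuron genes 1 was counted, Slc17a6, given above among the subtype genes, at -0.43. The glutamate list summed to between 74.4 and 110.9 FPKM in Th-high and between 104.7 and 135.7 FPKM in Th-low libraries. Astrocyte genes had a median of -0.02, and among them Gfap, the intermediate filament of astrocytes, stood out at 0.94. Pan-neuronal genes had a median of 0.14. Syt1, the calcium sensor of transmitter release, was their exception with 207, 239 and 292 FPKM in Th-high libraries and 132, 143 and 179 FPKM in Th-low libraries, without overlap (0.68). Stmn2, a tubulin-binding protein of neurons, also did not overlap (0.22), while Rbfox3, the source of the NeuN antigen, differed by -0.28.

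Markers of neighbouring nuclei were mostly under the limit on mean level. None of the 6 cholinergic and oculomotor genes was counted. The 6 summed to between 0.804 and 1.99 FPKM in Th-high and between 1.32 and 2.20 FPKM in Th-low libraries. Of 4 serotonin neuron genes 1 was counted, and the list summed to between 7.02 and 14.4 FPKM in Th-high and between 6.60 and 10.1 FPKM in Th-low libraries. Of 11 genes of hypothalamus and mammillary body 4 were counted, with a median of -0.02. Cartpt, at -3.42, is the member that lay far from it. The list summed to between 19.9 and 680 FPKM in Th-high and between 276 and 1423 FPKM in Th-low libraries. Ucn was in none of the lists, and which cells or nuclei Cartpt and Ucn came from was not tested. Tcf7l2, a transcription factor of the thalamus in the forebrain list, differed by -0.85. The choroid plexus gene Ttr had a median of 0.191 FPKM in Th-high libraries and 0.0686 FPKM in Th-low libraries.

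Immediate early genes, which neurons switch on when active, were lower in Th-high libraries in 11 of 13 counted cases, with a median of -0.19 and overlap throughout. Fos had 5.01, 15.8 and 21.9 FPKM in Th-high libraries, against 11.2, 19.1 and 26.4 FPKM in Th-low libraries, and Egr1 differed by -0.46. Within saline libraries Fos differed by -1.03 and within cocaine libraries by -0.05, and the gap between these was not tested. Saline paradigms were uneven, with 1 acute, 3 chronic and 1 conditioning library in Th-high against 0, 2 and 3 in Th-low. In conditioning saline Fos had 21.9 FPKM in Th-high and 18.8 to 23.8 FPKM in Th-low. In chronic saline it had 5.01 to 8.97 FPKM in Th-high and 11.5 and 19.5 FPKM in Th-low. Paradigm and Th level cannot be told apart in the saline difference. Nuclear genes of oxidative phosphorylation had a median of -0.04, cytosolic ribosomal proteins -0.06, glucocorticoid-induced genes 0.03 and oligodendrocyte precursor genes 0.03.

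The dopamine neuron differences were of similar size in each division of the 24 libraries. Each division still set libraries chosen for more Th against libraries chosen for less, so this is a description only. The median of the 48 genes was 0.87 within acute, 0.83 within chronic and 0.85 within conditioning libraries. That median was 0.93 within cocaine and 0.80 within saline libraries. Slc6a3 differed by 1.67, 1.55 and 1.57 within the 3 paradigms in that order, and Foxd2 by -1.57, -1.64 and -1.50. A setting that moved the counts was the number of libraries: with 6 highest and 6 lowest, 241 genes were higher and 92 lower, and with 17 and 17, 76 were higher and 19 lower.

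The 24 self-administration libraries took no part in the choice and allow a test. In each gene the slope of log2(FPKM + 1) on log2(Th FPKM + 1) was fitted with treatment as covariate by limma, and p-values were adjusted over all 13129 genes. Th ran between 128 and 499 FPKM there. The slope was positive in 136 genes (1.04%) and negative in 51 (0.388%) at an adjusted p under 0.05. Of the 132 genes higher in Th-high libraries, 112 could be tested, 71 of them (63.4%) passed with a positive slope and 0 with a negative one. These 71 are 53.8% of the 132 and 52.2% of the 136. Of the 50 lower genes 42 could be tested, and 9 of them (21.4%) passed with a negative slope, which is 18% of the 50 and 17.6% of the 51. Of the 19 lower genes without overlap, all 19 had a negative slope and 12 passed.

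Most dopamine neuron genes rose with Th in these libraries. Of 48 genes 47 could be tested, 29 passed with a positive slope and 0 with a negative one, and the median slope was 0.47, against -0.0025 over all genes. Slc39a4 had the smallest adjusted p, with a slope of 0.82 ± 0.05 (SE, n = 24, limma adjusted p = 1.92e-10). The neurotensin receptor gene Ntsr1 followed at 0.71 ± 0.05 (adjusted p = 3.76e-10) and the transporter gene Slc6a3 at 1.04 ± 0.09 (adjusted p = 3.43e-08). Ret (0.67 ± 0.06), Drd2 (0.62 ± 0.06), Chrnb3 (0.89 ± 0.09), Ddc (0.86 ± 0.09), Dlk1 (0.47 ± 0.05) and Gch1 (0.79 ± 0.08) were also among the 12 with the smallest adjusted p. The other 3 were outside the lists: Cadps2, which primes dense-core vesicles (0.72 ± 0.07), Syt17, a synaptotagmin relative (0.49 ± 0.05), and Cyp26b1, which degrades retinoic acid (0.50 ± 0.05). In the injected libraries all 3 were higher without overlap, by 1.12, 0.84 and 0.99. By list, 4 of 5 genes of synthesis, storage and uptake passed, 5 of 10 transcription factors, 12 of 13 receptors and membrane proteins, 4 of 12 subtype genes and 4 of 7 others.

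Some genes with large differences in the injected libraries did not pass. Anxa1 had a slope of 0.72 ± 0.24 (limma adjusted p = 0.190), Calb1 0.40 ± 0.14 (adjusted p = 0.267) and Grp 0.50 ± 0.15 (adjusted p = 0.142). Nr4a2 (0.20 ± 0.11, adjusted p = 0.724), Calb2 (-0.21 ± 0.11) and Slc17a6 (-0.19 ± 0.08) did not pass either. Cartpt had a slope of -1.64 ± 0.62 (adjusted p = 0.333) and Ucn -1.32 ± 0.53 (adjusted p = 0.406). Pitx3 could not be tested, since its mean was under 1 FPKM: it had 0.228, 0.796 and 2.20 FPKM in self-administration libraries (lowest, median and highest). Slc6a3 had 129.7, 258 and 608 FPKM there. Whether annotation or library preparation differed between injected and self-administration libraries is not known, so levels were compared only within each set.

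**Figure D4:**
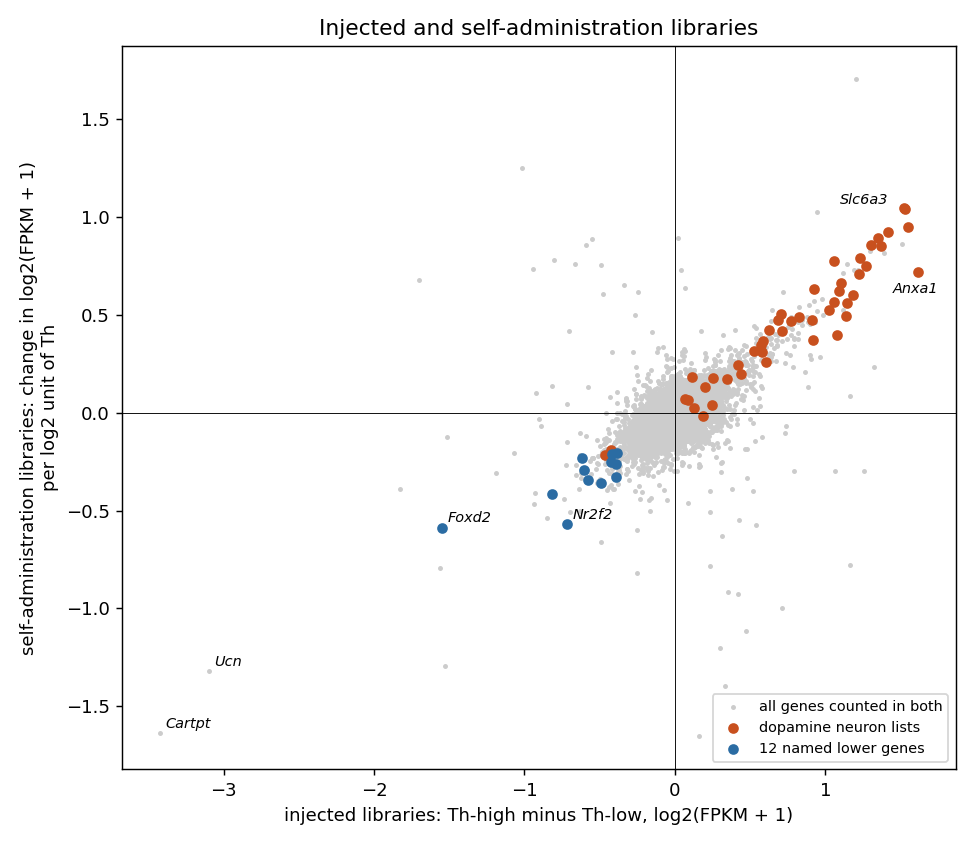
Each point is a gene counted in both sets of libraries. The x axis is the difference of mean log2(FPKM + 1), Th-high minus Th-low, and the y axis the slope of log2(FPKM + 1) on log2(Th FPKM + 1) in the 24 self-administration libraries. Slc6a3 lies at 1.53 and 1.04, Foxd2 at -1.55 and -0.59.

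The 12 genes with the smallest adjusted p that fell with Th began with both nuclear receptor genes of the COUP-TF kind. Nr2f1, COUP-TFI, came first, with a slope of -0.37 ± 0.05 (limma adjusted p = 1.71e-05, n = 24), and Nr2f2 had -0.57 ± 0.09 (adjusted p = 0.000858). In the injected libraries Nr2f1 differed by -0.42, with overlap. Gulp1 (-0.42 ± 0.07), Foxd2 (-0.59 ± 0.12), Rnd3 (-0.33 ± 0.06) and Ptprt (-0.36 ± 0.07) fell too. So did the orphan receptor gene Gpr101 (-0.51 ± 0.10), the GTPase-activating protein gene Arhgap36 (-0.46 ± 0.09) and the cilium genes Lrrc48 (-0.29 ± 0.05) and Ccdc113 (-0.37 ± 0.07). The transcripts A830082K12Rik (-0.28 ± 0.05) and 2900079G21Rik (-0.36 ± 0.07) complete the 12. Of the lists of other cell types, Syt1 (0.35 ± 0.07) was the pan-neuronal gene that passed, and 0 of the 14 oligodendrocyte, 13 endothelial and 13 microglia genes did. Sim1, a transcription factor of the hypothalamus list (-0.31 ± 0.07), and Ccdc153, a cilium gene of the choroid plexus and ependyma list (-1.12 ± 0.28), also passed with negative slopes.

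Of the 29 dopamine neuron genes called, 23 were called whichever library was left out, 17 in the 15 cocaine libraries alone and 14 in the 9 saline libraries alone, and all 29 kept a positive slope in each. The 12 negative genes named kept their call in each leave-out, but 1 of 12 passed in cocaine libraries alone and 1 of 11 in saline libraries alone, where Foxd2 was under the limit on mean level. The range of Th rests partly on self-administration cocaine 11 (498.9 FPKM) and saline 6 (493.4 FPKM). Without both, 44 positive and 4 negative slopes passed, 37 and 1 of them among the higher and lower genes, and 19 of the 29 dopamine neuron genes. Without cocaine 11 alone, 87 positive and 17 negative slopes passed, and without saline 6 alone 90 positive. Without cocaine 6, 90 negative slopes passed, 15 of them among the lower genes, and without cocaine 10, saline 4 or saline 3 these were 31, 29 and 30.

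Cocaine and saline could be compared over all 35 injected libraries, since those groups come from the labels and not from Th. The comparison was fitted with paradigm as covariate, and then with log2(Th FPKM + 1) added. Without Th, 0 genes were higher (0%) and 2 lower (0.0152%) at an adjusted p under 0.05 in limma, with 918 higher and 799 lower at an unadjusted p under 0.05. With Th, 0 were higher (0%) and 2 lower (0.0152%), with 1058 and 1021 at an unadjusted p under 0.05. Both fits called Fgf20 and P2ry13. With Th, leaving out conditioning cocaine 0 gave 11 higher and 4 lower genes, and leaving out acute cocaine 2 gave 6 higher and 7 lower. None of the other 47 dopamine neuron genes passed in either fit. Slc6a3 differed by -0.13 ± 0.25 (SE) between cocaine and saline without Th and by -0.06 ± 0.07 with it. The median standard error of the dopamine neuron genes was 0.0577 with and 0.156 without Th as covariate, against 0.0346 and 0.0372 over all genes.

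Fgf20, a fibroblast growth factor that supports dopamine neurons, was lower in cocaine than in saline libraries in both fits. Its mean was 0.901 FPKM in the 17 cocaine and 2.39 FPKM in the 18 saline libraries. It thus passed the limit on mean level only through its values in saline libraries. In Th-high libraries it had 0.933, 1.35 and 1.77 FPKM in the 7 cocaine libraries, against 2.25, 3.43 and 5.35 FPKM in the 5 saline libraries (lowest, median and highest). In Th-low libraries it had 0.128, 0.406 and 1.16 FPKM in the 7 cocaine libraries and 0.929, 1.43 and 2.70 FPKM in the 5 saline libraries. Cocaine and saline did not overlap within Th-high, and did within Th-low. The cocaine difference was -0.80 ± 0.15 without Th (limma adjusted p = 0.0337, n = 17 cocaine and 18 saline) and -0.76 ± 0.09 with Th (adjusted p = 1.44e-05). Without Th, Fgf20 lost its call in 17 of 35 leave-outs, with an adjusted p up to 0.0879 (without acute cocaine 3). With Th it kept the call in all 35. It also lost the call without Th at a pseudocount of 0.1 (-1.34, limma adjusted p = 0.0520), with no filter (0.0536) and after quantile normalization (0.0540). Within 1 paradigm the call ended in each case without Th, and with Th it held in chronic libraries alone. In the self-administration libraries the slope of Fgf20 on Th was 0.42 ± 0.12 (adjusted p = 0.0805).

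**Figure D5:**
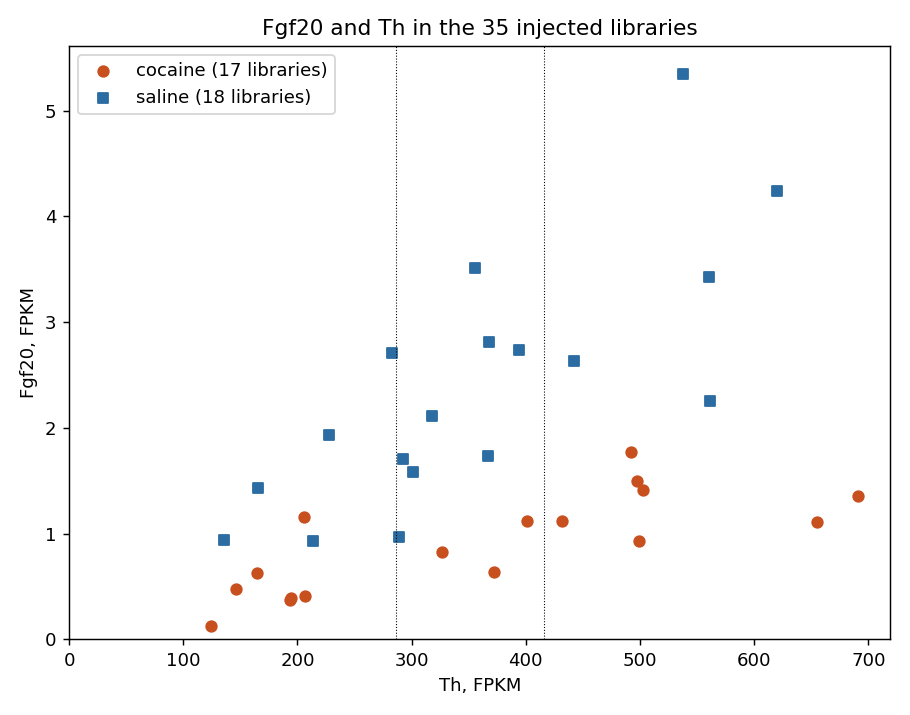
Fgf20 against Th, both in FPKM, in the 35 injected libraries; circles are 17 cocaine and squares 18 saline libraries, and dotted lines mark the limits of the Th-low (left) and Th-high (right) libraries. In Th-high libraries cocaine reaches 1.77 FPKM and saline begins at 2.25 FPKM.

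P2ry13, a purine receptor gene of microglia, differed by 0.15 between Th-high and Th-low libraries, with overlap. It had 1.75, 2.55 and 3.14 FPKM in the 17 cocaine libraries, against 2.47, 3.19 and 4.01 FPKM in the 18 saline libraries. The cocaine difference was -0.29 ± 0.05 without Th (limma adjusted p = 0.00993) and -0.28 ± 0.05 with Th (adjusted p = 0.00382), and it was called in each leave-out. Within 1 paradigm it was not called in either fit, and after quantile normalization it was not called without Th (limma adjusted p = 0.0502). In self-administration libraries P2ry13 had 2.10 ± 0.54 FPKM in 15 cocaine and 2.24 ± 0.42 FPKM in 9 saline libraries (mean ± SD). Fgf20 had 0.945 ± 0.401 and 1.88 ± 1.16 FPKM in the same libraries. No result of a test of cocaine against saline is given for that set. Next among the lower genes in the fit with Th, none past the threshold, were the microglial transcription factor gene Irf8 (-0.20 ± 0.04, limma adjusted p = 0.102), the phosphatase gene Ptpn6 (-0.19 ± 0.04) and the transcription factor gene Sox1 (-0.19 ± 0.04). The 5 higher genes with the smallest unadjusted p in that fit, also not past the threshold (adjusted p = 0.102 each), were Pdrg1 (0.12 ± 0.03), Nfkbia, an inhibitor of NF-kappa-B (0.21 ± 0.04), Gcsh, of the glycine cleavage system (0.11 ± 0.02), the secreted protease gene Adamts1 (0.19 ± 0.04) and the sterol isomerase gene Ebp (0.11 ± 0.03).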

How the data were processed

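RNA sequencing libraries were made from VTA RNA with an RNeasy and a TruSeq kit, per the labels' protocols. The authors deposited 1 table of FPKM by gene symbol for 59 libraries, all of whose columns were used (0 left out). Bowtie, Cuffnorm and mm10 are named in the submitters' processing notes; versions, annotation, filters and strand were not given in the sources used here. FPKM depend on length and library total, and reads of near-identical or overlapping genes can be split. The read depth is unknown: the most frequent step between low values held 1.02% to 7.19% of low genes, so whole reads were not recovered, and no counting interval is given.

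Columns were mapped to groups by name. Values were taken as log2(FPKM + 1), and a gene was counted if it averaged 1 FPKM or more in the libraries compared. Th-high and Th-low libraries were described by differences of means, a 1.5-fold limit and overlap, with no test. The Th slope in self-administration libraries (treatment as covariate) and cocaine against saline in injected libraries (paradigm as covariate, without and with Th) were fitted by limma 3.58.1 in R 4.3.3 with trend and robust options, two-sided, with Benjamini-Hochberg adjustment over all genes and a threshold of 0.05. The fits were tested on simulated data. Other pseudocounts, filters, normalizations, numbers of libraries, choice by Slc6a3 and leave-outs were tried.

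Libraries, members, lists and tests were chosen with earlier results of these data known. Of 25 gene lists, the mitochondrially encoded one had 0 members in the table. The text names up to 12 genes in each direction whose difference without overlap was largest, up to 12 per direction with the smallest adjusted p of the slope, all members of the dopamine neuron lists, 2 to 4 members of other lists described, and up to 5 per direction of each cocaine comparison; exceptions are said where they stand, and a few genes are not reported here. Coordinates are of GENCODE M21 on GRCm38, and promoters are from RefSeq, matched by symbol.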

Additional observations from a re-analysis of the deposited data

Results flagged for a closer look

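P2ry13 in chronic saline 3, a Th-high library, was 4.01 FPKM, the highest of the 6 chronic saline libraries. These 6 had 3.26 ± 0.38 FPKM (mean ± SD), with a lowest value of 3.00 FPKM. The flagged value was that of chronic saline 3. This value was found by comparing, in 21 groups, the gap between the most extreme library and its nearest neighbour with the range of the group, a limit that chance passes in about 1 group of 20. Leaving that library out did not end the call of P2ry13 between cocaine and saline.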

How the results depend on the processing

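The read depth is unknown, the 24 libraries were chosen by a measured gene, and paradigms are unevenly spread over Th-high and Th-low, so small differences cannot be told apart from any of these. None of the counts of genes, list medians, Th-high minus Th-low differences and cocaine differences recomputed changed direction. Th slopes of 5 dopamine neuron genes that were not called in self-administration libraries did change sign. Gchfr had -0.11 in cocaine and 0.29 in saline libraries only, and leave-outs ran from -0.03 to 0.09 for Foxa2, -0.03 to 0.12 for Cck, -0.03 to 0.07 for Nxph4 and -0.09 to 0.02 for Vip. No paired analysis was possible because the column numbers, counted from 0, do not match the numbering of the labels, which starts at 1. The divisions of the 24 libraries by paradigm were added after seeing the data. The numbers of higher and lower genes and the median of the 48 dopamine neuron genes were 132, 50 and 0.87. They became 200, 91 and 1.05 with a pseudocount of 0.1, 241, 92 and 1.18 with 6 and 6 libraries, and 76, 19 and 0.67 with 17 and 17. Lower genes numbered 97 in saline libraries only and 85 in chronic libraries of the 24 only. With libraries left out in turn, the ranges were 128 to 150, 44 to 58 and 0.83 to 0.93.

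In self-administration, 136 positive and 51 negative slopes, with 71 and 9 among the higher and lower genes, became 48, 3, 38 and 0 in cocaine libraries only and 21, 4, 21 and 2 in saline libraries only. They became 44, 4, 37 and 1 without the 2 libraries farthest from the median Th, and with no filter 103 negative slopes passed. Leaving out 1 library gave 87 to 179, 17 to 90, 60 to 83 and 6 to 15. Cocaine 11 gave 87 and 17, saline 6 gave 90 positive, and cocaine 6 gave 90 negative with 15 among the lower genes. Cocaine 10, saline 4 and saline 3 left 31, 29 and 30 negative.

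Of the 2 genes lower after cocaine, 1 was called with a pseudocount of 0.1 and with no filter, and 0 after quantile normalization and in acute, chronic or conditioning libraries alone. With Th as covariate these paradigms gave 0, 1 and 0. Fgf20 had an adjusted p in limma of 0.0520 at pseudocount 0.1, 0.0536 with no filter and 0.0540 after quantile normalization, where P2ry13 had 0.0502. Leaving out 1 library gave 0 to 2 higher and 1 to 3 lower genes, and with Th 0 to 11 and 2 to 7. The extremes came from conditioning cocaine 0 (11 higher, 4 lower with Th) and acute cocaine 2 (6 higher, 7 lower with Th). The cause of these changes was not tested.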

Other observations

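Several genes varied widely among Th-high libraries. Gfap, the filament of astrocytes, had 137 FPKM in acute cocaine 0 and 107 in chronic saline 3, against 8.49 in chronic cocaine 3, the library with the most Th. Myoc, the gene of the secreted protein myocilin, had 13.1, 17.7 and 0.141 FPKM in the same 3 libraries. In Th-low libraries Gfap lay between 12.9 and 38.6 FPKM and Myoc between 0.0887 and 1.63 FPKM. The other 11 astrocyte genes differed by between -0.13 and 0.22 (Agt, the highest) between Th-high and Th-low. Aldh1a7, a relative of Aldh1a1, had 13.2 FPKM in conditioning saline 0 and 2.36 in chronic saline 0, both Th-high, and 6.85 FPKM in conditioning saline 1, against at most 1.80 in the other Th-low libraries. Myoc and Aldh1a7 were chosen after their values were seen.

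Other neuronal genes outside the lists were higher in Th-high libraries without overlap, and were likewise chosen after their values were seen. They include the kappa opioid receptor gene Oprk1 (0.82), the muscarinic receptor gene Chrm5 (0.82), the potassium channel gene Kcnn3 (0.79) and the nicotinic subunit gene Chrna3 (0.98). Oprk1 also passed in self-administration with a slope of 0.41 ± 0.08 (limma adjusted p = 0.0035), Chrm5 with 0.37 ± 0.07 (adjusted p = 0.0055), Kcnn3 with 0.38 ± 0.09 (adjusted p = 0.0328) and Chrna3 with 0.58 ± 0.09 (adjusted p = 0.000379).

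The near-identical haemoglobin genes Hba-a1 and Hba-a2 appeared in turn. In conditioning cocaine 2 they had 0.0401 and 51.9 FPKM, in acute cocaine 4 they had 0.113 and 42.4 FPKM, and in chronic saline 5, also Th-low, 21.6 FPKM each. All 12 Th-high libraries had at least 28.5 FPKM of Hba-a1 and at most 0.327 FPKM of Hba-a2. Their differences between Th-high and Th-low, 1.21 and -1.82, are thus uncertain for either gene alone.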
